A study of Mus musculus with 7 samples.

Results

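The acinar cells of i4F mice were taken as the cells whose cluster name in the deposited i4F annotation began with "Acinar" (the clusters Acinar_1 and Acinar_2). They numbered 3531 of the 25643 i4F cells and of the 58473 cells of the whole study, with 594, 807 and 2130 cells in the i4F mice 1, 2 and 3. The 1770 cells of the WT cluster named Acinar (853 and 917 in the 2 WT mice) and the 2636 of the caerulein cluster of that name (1542 and 1094) served as the reference. Each mouse was 1 library of dissociated whole pancreas, measured by 10x Genomics 3′ single-cell RNA-seq (v3), in C57BL/6 mice 2 months old. The i4F mice (genotype i4F-B) carry 1 copy of a cassette for Oct4, Sox2, Klf4 and Myc (OSKM), inserted in the Pparg gene and switched on by doxycycline in any tissue, and 1 copy of the rtTA transactivator in Rosa26. The i4F mice and the WT mice, labelled wild type, both drank doxycycline (1 mg/ml, in water with 7.5% sucrose) for 7 days. The caerulein mice were also wild type, with caerulein and not doxycycline named as their treatment, and received caerulein, a cholecystokinin analogue, at 100 µg/kg in 7 injections a day on 2 days. The driver of OSKM is ubiquitous, so all other pancreatic cells of an i4F mouse carry it as well, and a change in acinar cells cannot be told apart from one brought about by other cells.

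Acinar cells are the exocrine cells that fill most of the pancreas. They make digestive enzymes and their precursors in a very large rough endoplasmic reticulum, pack them in zymogen granules and release them when cholecystokinin or acetylcholine binds its receptor. The transcription factors Ptf1a, with its partner Rbpjl, Bhlha15 (Mist1) and Nr5a2 keep this programme on. After injury acinar cells lower their enzymes, take up keratins and other genes of duct cells (acinar-to-ductal metaplasia) and secrete Reg proteins, which are lectin-like proteins known from pancreatitis.

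The markers that go with the label were found in the cells, but not evenly. Gp2, the major membrane glycoprotein of zymogen granules (chromosome 7, 119442537-119459285 in GRCm38), was at 17564 and 18545 CPM in WT, 1220.2, 2716 and 12763 CPM in i4F and 743 and 517 CPM after caerulein, in CPM, that is UMIs of the gene relative to all UMIs of the sum, scaled by TMM (trimmed mean of M-values). Pnliprp2, a lipase related to pancreatic lipase (chromosome 19, 58759719-58777534), was at 24685 and 26207 CPM in WT, 1054, 2187 and 15089 CPM in i4F and 1598 and 1336 CPM after caerulein. Both were lower in every i4F mouse than in either WT mouse, and i4F 3 lay nearer to WT than to i4F 1 and 2. Reg3b (chromosome 6, 78370657-78373466) was at 66047 and 545 CPM in WT, 66756, 82670.2 and 133948 CPM in i4F and 19387 and 23166 CPM after caerulein, and Reg2 (chromosome 6, 78395623-78408106) at 48322 and 1686 CPM in WT, 42076, 58704 and 191767 CPM in i4F and 8063 and 5678 CPM after caerulein. Here the WT mice themselves differed more than 20-fold. WT 1 fell among the i4F mice for Reg2 and just below the lowest of them for Reg3b. Ptf1a, Bhlha15 and Rbpjl were detected in every mouse, and 6 of the 13 acinar markers set for the label, among them Cpa1 and Ctrb1, are not analysed here.

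Depth and the libraries limit what can be said. The acinar cells summed to 767407 and 817448 UMIs for WT, 3530216, 4470144 and 2887026 for i4F and 5893070 and 2421364 for caerulein. The median UMIs per cell were 431 and 502 in WT, 1933, 2020 and 606 in i4F and 2213.5 and 1322.5 after caerulein. Cells with under 500 genes made up 85.2% and 82.9% in WT, 48.3%, 48.6% and 79.3% in i4F and 29.7% and 41.9% after caerulein. The gene Gm42418 gave 4.44% and 7.22% of UMIs in WT, 0.294%, 0.418% and 3.22% in i4F and 0.706% and 0.942% after caerulein. By summed UMIs i4F 3 lay nearer to i4F 1 and 2 than to WT. By median UMIs, cells with under 500 genes and Gm42418 it lay nearer to WT. The part of these measures in the contrasts without i4F 3 was not tested. Library i4F 3 stood apart. Over the genes its levels had a Spearman correlation of 0.851 and 0.863 with the WT mice and of 0.796 with i4F 1 and with i4F 2, which had 0.955 with each other. This is a description over genes of libraries that differ in depth. Cluster Acinar_1 held 11, 61 and 2071 cells of the 3 i4F mice and Acinar_2 held 583, 746 and 59, so the clusters largely separate i4F 3 from the others. Counts over the lists against WT are therefore given with all mice and without i4F 3. Leaving out each mouse in turn was planned, but the values without i4F 3 were brought into the text after they had been seen. They describe i4F 1 and i4F 2. The clusters were made by the authors within each condition from the genes themselves, so that cells with few acinar transcripts may have been left out to a different extent in each condition. The names of the libraries begin with AL for WT 1 and the 3 i4F mice and with AM for WT 2 and the 2 caerulein mice, and what the letters stand for is not given. Any difference between i4F and caerulein, and between the WT mice, runs along these letters. With the letters as a term in the fit, no gene passed against WT (1780 at an unadjusted p under 0.05) or against caerulein (764), and the term rests on the 2 WT mice. Any 2 libraries shared 3 to 39 cell barcodes, at most 0.411% of the smaller library.

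The i4F acinar clusters held cells of unlike kinds. A set of 11 genes of cornified and squamous epithelium (Krt6a, Krt13, Krt16, Sprr2a3, Sprr2b, Cnfn, Crct1, Slurp1, Krtdap, Tgm1 and Lgals7) was drawn up after these genes had been seen to lead the rises. At least 5 UMIs of the set were found in 149 of 594 acinar cells of i4F 1 (25.1%, exact 95% interval 21.6 to 28.8%), in 118 of 807 of i4F 2 (14.6%, 12.3 to 17.3%) and in 9 of 2130 of i4F 3 (0.423%, 0.193 to 0.801%). In WT acinar cells such cells were 0 of 853 and 0 of 917, which allows shares of up to 0.352% and 0.327% when 3 cells are taken as the limit at a count of 0 (upper ends of the exact 95% intervals 0.432% and 0.401%). The WT cells had medians of 431 and 502 UMIs in which 5 could be found. After caerulein such cells were 8 of 1542 and 4 of 1094. These intervals cover counting error only. The limit of 5 UMIs marks a range and not a type. In the i4F mice 22, 21 and 3 cells had 5 to 9 UMIs of the set and 83, 138 and 28 had 1 to 4. Of the cells over the limit, 274 were in Acinar_2 (19.7% of that cluster) and 2 in Acinar_1. Elsewhere in the i4F mice the same count was met by 261 and 87 cells of the activated stellate clusters (3.77% and 6.05%), by 18 cells of the first macrophage cluster (0.308%), by 8 ductal cells (0.820%) and by 1 or 2 cells of 5 other clusters. In WT and caerulein mice it was met mainly by mesothelial cells (47 and 202 cells), where Lgals7 alone gave 94.3% and 97.8% of the UMIs of the set.

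The cells with squamous genes were large libraries with a low share of acinar transcripts. They held 62.9%, 52.9% and 4.59% of all acinar UMIs of the 3 i4F mice, with medians of 9048, 13140.5 and 12388 UMIs per cell against 1280, 1725 and 603 in the other acinar cells. A limit set as a number of UMIs is met more readily by cells with many UMIs, so that this gap is in part fixed by the choice, and the cells with 5 to 9 UMIs of the set had medians of 555.5, 3904 and 12388 UMIs. Digestive enzyme genes and Gp2 gave 0.132%, 0.0420% and 0.382% of their UMIs (2925, 994 and 507 UMIs in the 149, 118 and 9 cells), against 1.19%, 1.78% and 4.30% in the other acinar cells, which had fewer UMIs per cell. Reg genes gave 1.71%, 0.560% and 0.359% of their UMIs. In cells outside the acinar clusters, where these transcripts can come from free RNA, the share of enzyme genes and Gp2 was 0.00351%, 0.0116% and 0.255% and that of Reg genes 0.0879%, 0.235% and 1.76%, so that in i4F 3 the Reg share of the cells with squamous genes was below the share outside the acinar clusters. Ly6g6c, a small Ly6 family protein of squamous epithelium, was at 7887, 3927 and 151 CPM (without TMM, as are all levels given by kind of cell) in the cells with squamous genes and at 45.8, 39.4 and 0 CPM in the others. S100a6, a calcium-binding protein of many epithelia and of stroma, was at 41278, 20952 and 596 CPM against 1275, 1531 and 108 CPM. Trp63, the factor that marks the basal layer of squamous epithelium, had 0 UMIs in the cells with squamous genes of all 3 mice. Of 2 mesothelial genes, Upk3b had 13, 20 and 0 UMIs there and Msln had 839, 301 and 0. The squamous genes of these cells go against the acinar label. They are described below as cells with 5 or more squamous UMIs, and whether they are doublets was not tested.

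**Figure D1:**
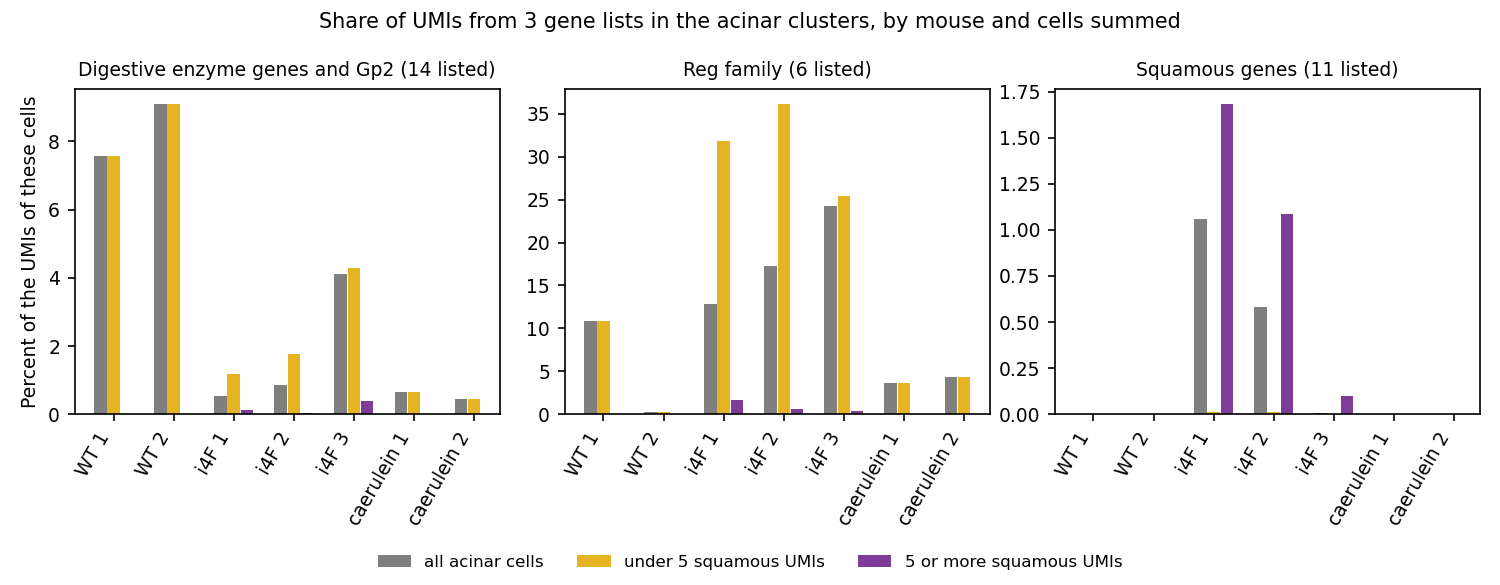
Percent of the UMIs that came from the 14 listed digestive enzyme genes and Gp2 (left), the 6 listed Reg genes (middle) and the 11 squamous genes (right), with 1 bar per mouse and kind of cell: all acinar cells, those with under 5 squamous UMIs and, for i4F mice, those with 5 or more. The y axes differ. In i4F 1 and i4F 2 the enzyme and Reg shares sit in the cells with few squamous UMIs, where Reg genes gave 31.8% and 36.1% of UMIs.

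Which genes differed between i4F and WT acinar cells was asked with 1 UMI sum per mouse. Over all 7 mice (edgeR quasi-likelihood test, Benjamini-Hochberg adjusted p under 0.05), 4 of 11134 genes tested were higher (0.0359%) and 5 were lower (0.0449%). At an unadjusted p under 0.05 there were 2796. Without i4F 3, 1923 of 11107 genes rose (17.3%) and 1706 fell (15.4%), and all 9 genes above were among them. Without any 1 of the 6 other mice no gene passed (1743 to 2261 at an unadjusted p under 0.05), while DESeq2 on all 7 mice called 510 higher and 382 lower. In the cells with under 5 squamous UMIs, 12 of 9794 genes rose (0.123%) and 8 fell (0.0817%) over all mice. Without i4F 3 these cells gave 922 rises (10.3%) and 949 falls (10.6%) of 8959 genes, of which 752 and 896 were also called when all acinar cells of i4F 1 and i4F 2 were summed. Every i4F mouse lay above every WT mouse for 25.3% of the genes tested and below for 18.1%. The mice are separate animals, so p-values over all mice measure the spread between mice. Those without i4F 3 rest on i4F 1 and i4F 2, which were alike, and leave out the spread that i4F 3 adds. They do not measure the spread between all i4F mice.

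The 4 genes that rose over all mice were Nccrp1, Sfn, Gsta4 and Zfas1. Nccrp1, an F-box protein of squamous epithelium, was at 1.52 and 4.38 CPM in WT, 925, 574 and 196 CPM in i4F and 5.89 and 4.91 CPM after caerulein (log2 fold change 7.55 ± 0.93 SE, adjusted p = 0.045). Every i4F mouse was above every WT and caerulein mouse. It stood at 1512, 1164 and 1206 CPM in the cells with 5 or more squamous UMIs, but also at 68.7, 57 and 84.2 CPM in the others, against 1.3 and 3.67 CPM in WT. Its log2 fold change over all mice in the cells with under 5 squamous UMIs was 4.95 ± 0.51 SE, adjusted p = 0.0112. Sfn (stratifin or 14-3-3 sigma), a p53 target that arrests the cell cycle, was at 42.6 and 20.4 CPM in WT, 1364, 1414 and 557 CPM in i4F and 173 and 174 CPM after caerulein (5.14 ± 0.63 SE, adjusted p = 0.045). In WT ductal cells it was at 614 and 406 CPM. Zfas1, a non-coding RNA that hosts small nucleolar RNAs, was at 15.2 and 19 CPM in WT, 251, 372 and 170.4 CPM in i4F and 219 and 205 CPM after caerulein (3.95 ± 0.46 SE, adjusted p = 0.045). The caerulein mice were as high as the i4F mice. Gsta4, a glutathione transferase that clears lipid peroxidation products, was at 1.52 and 5.83 CPM in WT, 167, 105 and 109 CPM in i4F and 12.6 and 20 CPM after caerulein (5.08 ± 0.58 SE, adjusted p = 0.045). Among cells with under 5 squamous UMIs it was at 13, 13.3 and 31.6 CPM, and its test there did not pass (adjusted p = 0.109). Without i4F 3 the log2 fold changes of Nccrp1, Sfn, Zfas1 and Gsta4 were 7.95, 5.46, 4.18 and 5.17.

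Aqp8, Apip, Kcna1 and Scn7a were among the 5 genes that fell. Aqp8, the water channel of the acinar apical membrane, was at 51.7 and 49.6 CPM in WT, 1.61, 2.4 and 5.5 CPM in i4F and 0.701 and 0.307 CPM after caerulein (-4.10 ± 0.50 SE, adjusted p = 0.045). The i4F mice did not overlap with WT, and the caerulein mice were lower still. Apip, an enzyme of methionine salvage, was at 105 and 94.8 CPM in WT, 17.4, 11.4 and 18.5 CPM in i4F and 41.1 and 41.1 CPM after caerulein (-2.67 ± 0.30 SE, adjusted p = 0.045). Kcna1 and Scn7a are ion channel genes of glia and axons and not of acinar cells. Kcna1 was at 33.5 and 87.5 CPM in WT, 0, 0.20 and 0 CPM in i4F and 0 and 0 CPM after caerulein, and Scn7a at 30.4 and 118 CPM in WT, 1.88, 1.8 and 3.5 CPM in i4F and 3.37 and 3.07 CPM after caerulein (-5.02 ± 0.61 SE, adjusted p = 0.045). Without i4F 3 the log2 fold changes of Aqp8, Apip and Scn7a were -4.61, -2.81 and -5.33. Markers of endothelial and endocrine cells, described below, were lower in the same mice, and their part in these falls was not tested.

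**Figure D2:**
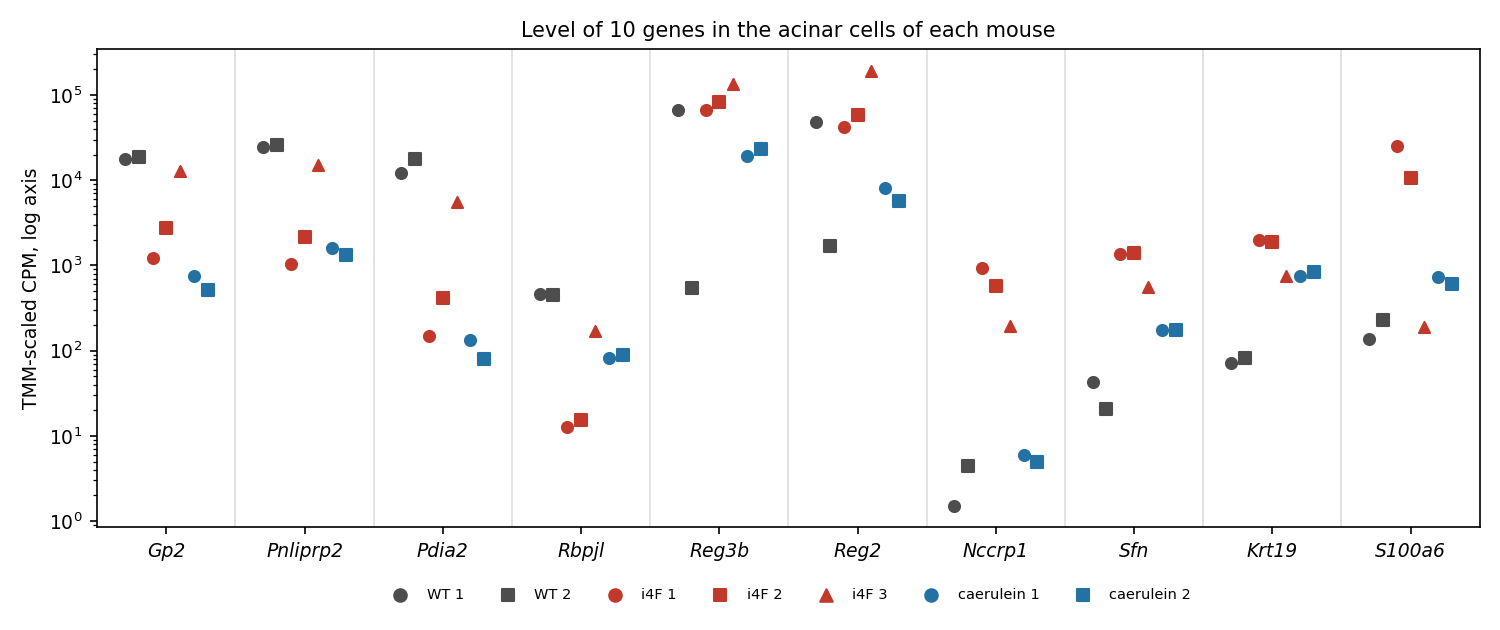
TMM-scaled CPM (log axis) of 10 genes in the acinar cells of each mouse, 1 point per mouse, with grey for WT, red for i4F and blue for caerulein. i4F 3 (red triangle) lies near WT for Gp2, Pnliprp2 and S100a6 and on the side of the other i4F mice for Nccrp1, Sfn and Krt19.

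The digestive enzymes fell in i4F acinar cells without i4F 3. Of the 33 enzyme genes of the list 13 had a row in the tables and 10 passed the filter on low counts. None of the 10 passed the test over all mice, with a median log2 fold change of -2.16 against 0.14 over all genes tested. Every i4F mouse lay below every WT mouse for 8 of them (18.1% of all genes did). Without i4F 3, 9 of the 10 fell (15.4% of all genes did), with a median of -4.21. Pla2g1b, the secreted phospholipase A2, was at 25349 and 41519.7 CPM in WT, 324, 1319 and 18954 CPM in i4F and 887 and 349 CPM after caerulein. Without i4F 3 its log2 fold change was -5.35 ± 0.74 SE, adjusted p = 5.9e-04, and with all mice -2.28 ± 1.36 SE, adjusted p = 0.316. Ctrc, chymotrypsin C, which controls trypsin activation, was at 2602 and 3318 CPM in WT, 27.6, 97.2 and 1096 CPM in i4F and 60.3 and 46.7 CPM after caerulein. The order WT, i4F 3, i4F 2, i4F 1 held for both genes, and the caerulein mice were in the range of i4F 1 and 2 or near it. For Pnliprp2 the log2 fold change was -3.98 ± 0.40 SE, adjusted p = 1.0e-04 without i4F 3 and -2.06 ± 0.98 SE, adjusted p = 0.231 with it. For Gp2 the values were -3.21 ± 0.41 SE, adjusted p = 4.0e-04 and -1.70 ± 0.87 SE, adjusted p = 0.256. The amylase genes Amy1, Amy2a5 and Amy2b share long near-identical stretches, so that their separate counts are uncertain. Amy2b was at 6888 and 4363 CPM in WT, 116, 402 and 3422 CPM in i4F and 89.2 and 75.5 CPM after caerulein.

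Without i4F 3 enzymes fell also among the cells with few squamous UMIs. In the cells with under 5 squamous UMIs, Pnliprp2 was at 21149 and 21984 CPM in WT, 2709, 5112 and 10890.2 CPM in i4F and 1941 and 1814 CPM after caerulein. In these cells 9 of the 10 enzymes fell without i4F 3 (10.6% of all genes did), with a median of -2.61, where it was -4.21 in all acinar cells. For Pnliprp2 the fold change was -2.37 ± 0.38 SE, adjusted p = 0.00368 and for Pla2g1b -3.76 ± 0.70 SE, adjusted p = 0.00739. Over all mice none of the 10 passed in these cells, with a median of -1.62.

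The list of granule, membrane and inhibitor genes went the same way. It also holds Gatm, Bcat2 and Gnmt, which are enzymes of amino acid metabolism, the mucin Muc1 and Sel1l of the endoplasmic reticulum. Gatm, Gnmt, Sel1l and Muc1 are counted again in other lists below, so the lists are not independent. Of 24 tested, 1 fell over all mice (Aqp8) and 20 fell without i4F 3 (15.4% of all genes did), with medians of -1.87 and -3.36. For 18 of them every i4F mouse lay below every WT mouse (18.1% of all genes). Pdia2, the disulfide isomerase particular to the pancreas, was at 12192 and 17994 CPM in WT, 150.2, 413 and 5543 CPM in i4F and 134 and 78.9 CPM after caerulein (-5.75 ± 0.56 SE, adjusted p = 8.7e-05 without i4F 3, -2.89 ± 1.26 SE, adjusted p = 0.20 with all mice). Serpini2 (pancpin), a protease inhibitor of acinar cells, was at 3973 and 4737 CPM in WT, 70.8, 123 and 2074 CPM in i4F and 14.3 and 8.9 CPM after caerulein (-5.49 ± 0.39 SE, adjusted p = 2.5e-05 without i4F 3, -2.53 ± 1.22 SE, adjusted p = 0.235 with all mice). Aqp12 and Rab26, a water channel and a small GTPase of granule maturation, also fell without i4F 3. Among cells with under 5 squamous UMIs 17 of the 24 fell without i4F 3 and 2 rose (10.3% of all genes rose and 10.6% fell there), with a median of -2.10.

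The machinery that folds secreted proteins fell as well without i4F 3. Of 37 genes of endoplasmic reticulum folding and stress, all tested, none passed over all mice and 32 fell without i4F 3 (15.4% of all genes did), with medians of -1.22 and -1.88. For 26 every i4F mouse lay below every WT mouse (18.1% of all genes). Their summed level was 25879 and 23094 CPM in WT, 6440.4, 6621 and 15364 CPM in i4F and 7919 and 6516 CPM after caerulein. Hspa5 (BiP), the main chaperone there, was at 3276 and 1589.6 CPM in WT, 617, 711 and 1202 CPM in i4F and 1059.9 and 803 CPM after caerulein (-1.88 ± 0.35 SE, adjusted p = 0.00301 without i4F 3, -1.53 ± 0.46 SE, adjusted p = 0.123 with all mice). Ero1lb, the oxidase that drives disulfide bonds in acinar and beta cells, was at 441 and 674 CPM in WT, 16.1, 38.4 and 377 CPM in i4F and 25.4 and 17.2 CPM after caerulein (-4.35 ± 0.44 SE, adjusted p = 9.7e-05 without i4F 3, -1.96 ± 1.08 SE, adjusted p = 0.281 with all mice). Sdf2l1, Edem2 and Sel1l, which retain or clear misfolded proteins, fell likewise without i4F 3. Of the 37, 27 fell without i4F 3 in the cells with under 5 squamous UMIs (10.6% of all genes did). Of 27 genes for the synthesis and uptake of amino acids, 15 fell and 3 rose without i4F 3, where 15.4% of all genes fell and 17.3% rose. Among those that fell, Phgdh, the first enzyme of serine synthesis, was at 996 and 967 CPM in WT, 206, 271 and 526 CPM in i4F and 368 and 324 CPM after caerulein (-2.05 ± 0.25 SE, adjusted p = 2.7e-04 without i4F 3, -1.55 ± 0.43 SE, adjusted p = 0.114 with all mice), and the glutamine carrier Slc38a5 at 516 and 706 CPM in WT, 6.7, 15.6 and 188 CPM in i4F and 6.31 and 0.921 CPM after caerulein (-5.76 ± 0.60 SE, adjusted p = 1.1e-04 without i4F 3, -3.14 ± 1.24 SE, adjusted p = 0.171 with all mice). The 3 that rose were Bcat1, Slc7a1 and Slc1a5, a smaller share than that of all genes.

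The factors that keep acinar identity fell unevenly without i4F 3. Of 16 tested none passed over all mice and 11 fell without i4F 3 (15.4% of all genes did), with medians of -0.87 and -1.63. Of the 16, 5 fell without i4F 3 in the cells with under 5 squamous UMIs (10.6% of all genes did), with a median of -1.18. Rbpjl was at 464 and 445 CPM in WT, 12.9, 15.4 and 171 CPM in i4F and 81.2 and 88.7 CPM after caerulein, with a log2 fold change of -5.01 ± 0.26 SE, adjusted p = 7.6e-06 without i4F 3 and -2.79 ± 1.00 SE, adjusted p = 0.150 with all mice. i4F 1 and 2 were below both caerulein mice. Bhlha15 was at 214 and 115 CPM in WT, 4.83, 11 and 92.9 CPM in i4F and 12.5 and 10.7 CPM after caerulein (-4.35 ± 0.41 SE, adjusted p = 7.8e-05 without i4F 3, -2.22 ± 1.02 SE, adjusted p = 0.216 with all mice). Nr0b2 and Spdef fell too. Ptf1a, at 31.9 and 74.4 CPM in WT, 10.2, 4.0 and 61 CPM in i4F and 59.6 and 20.6 CPM after caerulein, had i4F 3 between the WT mice and i4F 1 and 2 below both. Gata4 was at 21.3 and 14.6 CPM in WT, 11.8, 14.4 and 16.5 CPM in i4F and 7.43 and 6.45 CPM after caerulein and did not pass in any of these fits. Of the 6 receptor and signalling genes tested none passed over all mice, and 3 fell and 2 rose without i4F 3 (15.4% and 17.3% of all genes did). Among cells with under 5 squamous UMIs 2 of 5 fell and none rose without i4F 3 (10.6% and 10.3% of all genes did). Cckar, the cholecystokinin receptor of mouse acinar cells, was at 503 and 370.4 CPM in WT, 38.3, 45.6 and 235 CPM in i4F and 166 and 206 CPM after caerulein (-3.38 ± 0.27 SE, adjusted p = 3.7e-05 without i4F 3, -2.05 ± 0.73 SE, adjusted p = 0.150 with all mice). Ghr and Insr fell with it. Itpr3, the calcium release channel of the apical pole, was at 7.6 and 8.75 CPM in WT, 51.2, 61.6 and 23 CPM in i4F and 9.26 and 12.3 CPM after caerulein (2.77 ± 0.35 SE, adjusted p = 3.6e-04 without i4F 3, 2.47 ± 0.55 SE, adjusted p = 0.0911 with all mice), and Ano1, a chloride channel, rose as well. The values with under 5 squamous UMIs were -1.74 ± 0.24 SE, adjusted p = 0.00213 for Cckar and 1.30 ± 0.44 SE, adjusted p = 0.0656 for Itpr3.

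**Figure D3:**
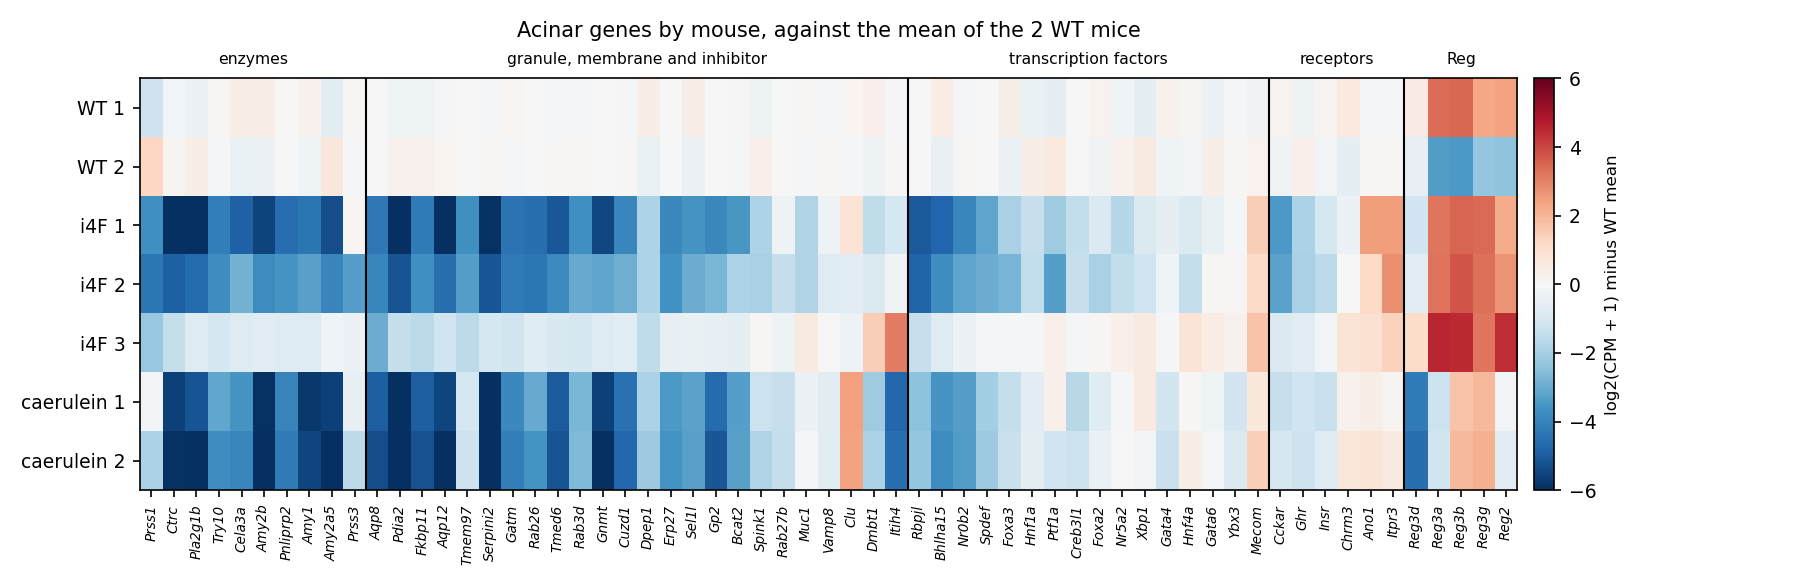
log2(CPM + 1) of each tested acinar gene in each mouse minus the mean of the 2 WT mice, with genes in columns, grouped by role and ordered by log2 fold change, and mice in rows. i4F 1 and 2 are blue across most enzyme, granule and membrane genes, i4F 3 is pale blue for most of them, and Reg3a, Reg3b, Reg3g and Reg2 are red in all 3 i4F mice but also in WT 1. The darkest shades stand for differences of 6 or more.

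The promoters of the secretory genes are shown because these genes fell together and because Ptf1a and Bhlha15 bind E-boxes and Rbpjl binds RBPJ motifs. The window was 250 bases before and 50 after the start of the gene in RefSeq (GRCm38.p6). Of the 29 members of the enzyme and granule lists that fell without i4F 3, 23 had a promoter in the table. Both strands were searched for the letters CACCTG, which form an E-box and read in the opposite direction, on the reverse strand, as CAGGTG. They were also searched for the core of RBPJ motifs, whose letters were taken as TTCCCA and which reads in the opposite direction, on the reverse strand, as TGGGAA. Neither motif holds the other. The E-box was found in 12 of the 23 (17.5% of the 8453 tested genes with a promoter and 20% of all 27025 promoters). The RBPJ motif was found in 9 of the 23 (22.6% and 25.5%). The 12 with the E-box include Gatm, Bcat2, Gnmt and Muc1, and the 9 include Bcat2 and Sel1l, which are not genes of secreted enzymes or of granules. A match is a description of letters and not a bound site. The 4 windows below carry the motifs in capitals, on the strand of the gene: Pnliprp2 (chr19:58759473-58759772, plus strand), Pdia2 (chr17:26199038-26199337, minus strand), Cela3a (chr4:137409742-137410041, minus strand) and Gp2 (chr7:119459223-119459522, minus strand).
Pnliprp2: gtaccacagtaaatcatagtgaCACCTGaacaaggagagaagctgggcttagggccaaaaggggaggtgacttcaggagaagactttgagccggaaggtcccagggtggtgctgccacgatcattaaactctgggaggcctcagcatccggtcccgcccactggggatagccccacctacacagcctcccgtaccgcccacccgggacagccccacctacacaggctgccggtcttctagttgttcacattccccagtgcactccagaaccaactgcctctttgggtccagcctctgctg
Pdia2: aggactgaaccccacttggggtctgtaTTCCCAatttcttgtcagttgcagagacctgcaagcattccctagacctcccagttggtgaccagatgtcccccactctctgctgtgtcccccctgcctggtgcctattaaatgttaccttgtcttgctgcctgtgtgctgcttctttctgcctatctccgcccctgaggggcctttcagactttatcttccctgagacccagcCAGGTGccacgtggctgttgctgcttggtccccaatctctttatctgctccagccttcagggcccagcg
Cela3a: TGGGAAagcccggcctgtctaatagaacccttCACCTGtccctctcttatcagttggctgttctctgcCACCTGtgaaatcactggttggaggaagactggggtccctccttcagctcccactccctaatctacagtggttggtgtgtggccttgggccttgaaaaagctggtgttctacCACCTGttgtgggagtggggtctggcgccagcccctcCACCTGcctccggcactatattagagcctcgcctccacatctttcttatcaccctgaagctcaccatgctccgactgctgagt
Gp2: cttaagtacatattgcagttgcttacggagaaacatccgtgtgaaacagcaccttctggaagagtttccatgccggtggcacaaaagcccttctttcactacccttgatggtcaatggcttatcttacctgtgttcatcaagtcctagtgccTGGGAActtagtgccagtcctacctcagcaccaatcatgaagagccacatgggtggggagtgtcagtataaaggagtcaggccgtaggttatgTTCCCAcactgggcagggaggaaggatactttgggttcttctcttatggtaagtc
Cela3a, an elastase, held the E-box at 4 places and the RBPJ motif at 1. Gp2 held the RBPJ motif at 2 places and no E-box, Pdia2 held each motif at 1 place, and Pnliprp2 the E-box at 1.

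The Reg genes were the most abundant messages of i4F acinar cells. Reg3b and Reg2 had the highest mean CPM of all genes there, and Gm42418, S100a6, Nupr1 and Reg3a were also among the first 10. Gm42418 had a mean of 17674 CPM (SD 24973) in i4F, 68901 CPM (SD 24206) in WT and 6420 CPM (SD 823) after caerulein. None of the 5 Reg genes tested passed over all mice or without i4F 3 (medians 1.5 and 1.0). Reg3b had a log2 fold change of 1.5 ± 1.41 SE, adjusted p = 0.520 and Reg2 of 1.96 ± 1.29 SE, adjusted p = 0.360. In the 2 WT mice the Reg genes gave 10.8% and 0.293% of UMIs. The median share per WT cell was 0.655% in WT 1 and 0.0934% in WT 2. In i4F cells with under 5 squamous UMIs that median was 27.3%, 44.3% and 26.1%, and in caerulein cells of that kind 3.14% and 4.01%. In these cells Reg3b was at 172562, 192586 and 97282 CPM in i4F, above both WT mice (56587 and 458 CPM), and Reg2 at 110827, 137299.9 and 139233 CPM (41400.5 and 1414 CPM in WT). Reg3a, at 6802 and 62.7 CPM in WT, 6026, 6339 and 15659.9 CPM in i4F and 273 and 285 CPM after caerulein, again had WT 1 among the i4F mice. Reg3g was at 2913 and 119.6 CPM in WT, 6294, 5895 and 5535 CPM in i4F and 2265 and 2616 CPM after caerulein, higher in every i4F mouse than in either WT mouse, and it rose in the cells with under 5 squamous UMIs without i4F 3 (3.65 ± 1.07 SE, adjusted p = 0.0405). That fit called 1 of the 5 Reg genes higher (10.3% of all genes were). The Reg3 genes resemble each other in sequence, so counts of single members are uncertain. In cells outside the acinar clusters the Reg genes gave 0.0879%, 0.235% and 1.76% of UMIs in the i4F mice and 0.0239% and 0.00365% in WT.

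Genes of duct and progenitor cells rose in part without i4F 3. Of 30 tested none passed over all mice, and 16 rose and 3 fell without i4F 3 (17.3% and 15.4% of all genes did), with medians of 1.66 and 1.91. Krt19, the keratin of duct cells, was at 71.5 and 81.7 CPM in WT, 1997, 1885 and 746 CPM in i4F and 761 and 844 CPM after caerulein, with a log2 fold change of 4.33 ± 0.56 SE, adjusted p = 0.0538 over all mice. Among cells with under 5 squamous UMIs it was at 61.2 and 68.5 CPM in WT, 559.7, 379 and 346 CPM in i4F and 914 and 1119.8 CPM after caerulein, and there it rose over all mice (2.86 ± 0.32 SE, adjusted p = 0.0197). Krt8, which acinar cells express and duct cells express more, was at 932 and 634 CPM in WT, 4561, 4144 and 2242 CPM in i4F and 3537 and 3810.3 CPM after caerulein (2.47 ± 0.29 SE, adjusted p = 2.3e-04 without i4F 3, 2.22 ± 0.48 SE, adjusted p = 0.0904 with all mice). Krt7 was at 4.56 and 2.92 CPM in WT, 214, 114 and 6.5 CPM in i4F and 51.2 and 79.2 CPM after caerulein, with i4F 3 close to WT (5.43 ± 0.54 SE, adjusted p = 9.5e-05 without i4F 3, 4.89 ± 1.47 SE, adjusted p = 0.123 with all mice). Sox9, a factor of ducts and of progenitors, was at 21.3 and 13.1 CPM in WT, 18, 9.2 and 35 CPM in i4F and 15.6 and 17.2 CPM after caerulein and did not pass in any of these fits. Agr2, Pdx1 and Muc1 fell without i4F 3. In cells with under 5 squamous UMIs 17 of 28 rose and 1 fell without i4F 3 (10.3% of all genes rose and 10.6% fell there), with a median of 1.94.

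Genes of the stomach surface appeared alongside. Of these, Tff1 and Cldn18 also belong to the list of duct and progenitor genes, and Tff1 is counted among its rises. The findings on gastric and on duct genes are therefore not independent. Tff1, a mucosal trefoil peptide, was at 0 and 0 CPM in WT, 1040.2, 284 and 367 CPM in i4F and 3.09 and 0 CPM after caerulein. The WT cells had 0 UMIs, so that the i4F level was at least 252-fold higher, taking 3 UMIs over the WT group as the floor. Muc5ac, the gel-forming mucin of the stomach, chosen after its values were seen, was at 0 and 0 CPM in WT, 216, 109.8 and 1117 CPM in i4F and 0 and 0 CPM after caerulein and was highest in i4F 3. At least 5 UMIs of 6 gastric genes (Tff1, Muc5ac, Psca, Gkn1, Gkn2 and Cldn18, also chosen after the values were seen) were found in 88, 65 and 64 i4F acinar cells, in 0 and 0 WT cells and in 2 and 0 caerulein cells. Of the i4F cells, 74, 51 and 9 also had 5 or more squamous UMIs, so in i4F 3 most cells with gastric genes had few squamous ones. In the i4F ductal cells Tff1 was at 171, 1.23 and 0.963 CPM.

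The 10 largest rises without i4F 3 included Ly6g6c and members of the squamous set, which was itself drawn up from such rises, beside Tff1, Aldh3a1 and 2310046K23Rik. Ly6g6c was at 0 and 0 CPM in WT, 4713, 1873 and 9.99 CPM in i4F and 0.842 and 0.614 CPM after caerulein, Sprr2b at 0 and 0 CPM in WT, 3179, 400.3 and 0.999 CPM in i4F and 0 and 0 CPM after caerulein and Slurp1 at 0 and 0 CPM in WT, 745, 2066 and 39.5 CPM in i4F and 0 and 0 CPM after caerulein. All 3 had 0 UMIs in WT, and against 3 UMIs over the WT group the 3 i4F mice together were at least 1125-fold, 578-fold and 550.3-fold higher. Sprr2b is counted beside close paralogs and its share among them is uncertain. The rise of these genes lies in i4F 1 and i4F 2 and was small in i4F 3. Aldh3a1, an aldehyde dehydrogenase of cornea and stomach, was at 0 and 0 CPM in WT, 308, 641 and 199.9 CPM in i4F and 0.421 and 0 CPM after caerulein, again with 0 UMIs in WT (at least 198-fold). It was higher in every i4F mouse than in every other mouse, and in the cells with under 5 squamous UMIs it passed over all mice (adjusted p = 0.0489, at 41.2, 44.2 and 88.2 CPM). The genes of this paragraph with 0 UMIs in WT entered the tests through the i4F mice. They could only be called higher, so these calls are not independent support.

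The transgene and the pluripotency genes were read as far as the tables go. The deposited tables list rtTA, the transactivator, which was at 6.08 and 0 CPM in WT, 31.6, 41.4 and 33.5 CPM in i4F and 0 and 0 CPM after caerulein. It was present in all 3 i4F mice, including i4F 3, and WT 1 held 4 UMIs of it. Pou5f1 (Oct4) was at 0 and 0 CPM in WT, 6.97, 28.4 and 0 CPM in i4F and 0.14 and 0.921 CPM after caerulein, with 168 UMIs in i4F 1 and 2 together, 0 in i4F 3 and 0 in WT, so that it was at least 7.01-fold higher over the 3 mice than 3 UMIs over the WT group. It was read at 9.01, 40.2 and 0 CPM in the cells with 5 or more squamous UMIs and at 4.58, 22.3 and 0 CPM in the others. Counts of Pou5f1, Sox2, Klf4 and Myc could hold both the transgene and the own gene. Sox2 was at 0 and 1.46 CPM in WT, 0, 3.8 and 0 CPM in i4F and 0.14 and 0 CPM after caerulein. Klf4 was at 39.5 and 30.6 CPM in WT, 71.9, 65 and 52 CPM in i4F and 48.3 and 53.7 CPM after caerulein, above WT in every i4F mouse. Myc was at 45.6 and 19 CPM in WT, 14.5, 27 and 28 CPM in i4F and 20.3 and 16.9 CPM after caerulein. Of 13 genes tested from the list of reprogramming factors and pluripotency genes none passed over all mice. Without i4F 3, 8 rose and 1 (Klf2) fell (17.3% and 15.4% of all genes did). The medians were 1.40 over all mice and 1.54 without i4F 3. The 8 include rtTA, part of the i4F genotype, and Pou5f1, whose counts could hold the transgene. Pou5f1 and L1td1 had 0 UMIs in WT and entered the test through their counts in i4F. The count is thus no measure of pluripotency genes alone. Without i4F 3, 4 of 9 rose and none fell in the cells with under 5 squamous UMIs (10.3% and 10.6% of all genes did). Of the 31 listed, 26, 26 and 14 were detected in the i4F mice, 17 and 14 after caerulein and 12 and 11 in WT, which had fewer UMIs. Their summed level was 240 and 203 CPM in WT, 621, 627 and 434 CPM in i4F and 618 and 440 CPM after caerulein. L1td1, an RNA-binding protein of pluripotent cells, was at 0 and 0 CPM in WT, 14.2, 22.8 and 2.5 CPM in i4F and 0 and 0.307 CPM after caerulein.

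Injury and acute-phase genes rose in part without i4F 3. Of 24 tested none passed over all mice, and 12 rose and 3 fell without i4F 3, where 17.3% and 15.4% of all genes did (medians 1.63 and 1.92). Among cells with under 5 squamous UMIs 16 rose and 2 fell without i4F 3 (10.3% of all genes rose and 10.6% fell there), with a median of 2.87. Timp1, an inhibitor of matrix proteases, was at 13.7 and 10.2 CPM in WT, 1388, 668 and 104 CPM in i4F and 295 and 324 CPM after caerulein (6.42 ± 0.46 SE, adjusted p = 2.5e-05 without i4F 3, 5.91 ± 1.13 SE, adjusted p = 0.081 with all mice). With under 5 squamous UMIs it was at 791, 833 and 62.1 CPM against 11.7 and 8.56 CPM in WT, while in i4F cells outside the acinar clusters it stood at 6663, 6651 and 934 CPM. S100a6 was at 135 and 226 CPM in WT, 25027, 10549 and 188 CPM in i4F and 727 and 608 CPM after caerulein (6.61 ± 0.53 SE, adjusted p = 3.4e-05 without i4F 3, 6.04 ± 1.74 SE, adjusted p = 0.118 with all mice), with i4F 3 among the WT mice. Nupr1, a stress protein first found in pancreatitis, was at 21919.7 and 19232 CPM in WT, 7995, 6222 and 15806 CPM in i4F and 36343 and 29274 CPM after caerulein. It fell without i4F 3 (-1.54 ± 0.31 SE, adjusted p = 0.00427 without i4F 3, -1.04 ± 0.55 SE, adjusted p = 0.268 with all mice), but in the cells with under 5 squamous UMIs its log2 fold change was -0.11 ± 0.33 SE, adjusted p = 0.850. Saa3 and Hp, both acute-phase proteins, rose without i4F 3.

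Cell cycle genes were higher in i4F 1 and i4F 2. Of 32 tested over all mice none passed, and of 33 tested without i4F 3, 25 rose and 1 (Ccnd2) fell (17.3% and 15.4% of all genes did), with medians of 2.36 and 2.72. In cells with under 5 squamous UMIs none of 29 passed over all mice (median 1.44), and 11 of 26 rose and 1 fell without i4F 3 (10.3% of all genes rose and 10.6% fell there), with a median of 1.92. Cdc20, which activates the anaphase-promoting complex, was at 0 and 1.46 CPM in WT, 34.3, 30.2 and 4.5 CPM in i4F and 5.33 and 7.06 CPM after caerulein (5.36 ± 0.69 SE, adjusted p = 3.9e-04 without i4F 3, 4.91 ± 1.40 SE, adjusted p = 0.116 with all mice). The summed level of the 35 listed genes was 1191 and 1156 CPM in WT, 2228, 1982 and 1002 CPM in i4F and 2046 and 2292 CPM after caerulein. i4F 3 was thus below both WT mice, and the caerulein mice were about as high as i4F 1 and 2. Of the 35 listed genes 10 had 0 UMIs in WT 1 and 9 in WT 2, the mice with the fewest UMIs. Tk1, Aurka and Aurkb, which are among the rises, had 0 in both. They entered the test through the other groups and could only rise, so the count of rises is in part fixed by the filter. Of 31 genes of the p53 pathway and of senescence none passed over all mice, and 12 rose and 2 fell without i4F 3, where 17.3% and 15.4% of all genes did (medians 1.08 and 1.01). Without i4F 3, 10 rose and 1 fell in the cells with under 5 squamous UMIs (10.3% and 10.6% of all genes did). Cdkn1a (p21) was at 286 and 181 CPM in WT, 851, 818 and 778 CPM in i4F and 1017 and 946 CPM after caerulein, higher in every i4F mouse than in either WT mouse (1.81 ± 0.35 SE, adjusted p = 0.081 over all mice, 1.83 ± 0.27 SE, adjusted p = 9.5e-04 without i4F 3). Perp, Eda2r and Lmnb1 rose without i4F 3.

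Genes that NK cells can sense were tested because the study concerned NK cells. Of 17 on the list 12 had a row and 7 were tested. None passed over all mice, and without i4F 3, 2 rose (Pvr and Nectin2) and 2 fell (Icam2 and Clec2d), where 17.3% and 15.4% of all genes did, with medians of 1.31 and 1.34. Nectin2, a ligand of the activating receptor DNAM-1 and of TIGIT, was at 56.3 and 45.2 CPM in WT, 131, 156 and 130.4 CPM in i4F and 102 and 110.2 CPM after caerulein. Every i4F mouse lay above every WT mouse, with a log2 fold change of 1.46 ± 0.29 SE, adjusted p = 0.081 over all mice and 1.49 ± 0.25 SE, adjusted p = 0.00162 without i4F 3. With under 5 squamous UMIs it also rose without i4F 3 (1.38 ± 0.23 SE, adjusted p = 0.0045). Pvr, which binds the same receptors, was at 10.6 and 8.75 CPM in WT, 42.6, 34.4 and 25.5 CPM in i4F and 14.6 and 26.4 CPM after caerulein (1.98 ± 0.43 SE, adjusted p = 0.00699 without i4F 3, 1.82 ± 0.46 SE, adjusted p = 0.101 with all mice). With under 5 squamous UMIs its test did not pass (adjusted p = 0.0682). Both genes were higher in duct cells, with 656 and 677 CPM of Nectin2 and 252 and 160.2 CPM of Pvr in WT ductal cells. Of the NKG2D ligands, Raet1e was at 3.04 and 1.46 CPM in WT, 4.02, 7.2 and 5.5 CPM in i4F and 20.5 and 14.7 CPM after caerulein and did not pass over all mice (adjusted p = 0.248) or without i4F 3 (adjusted p = 0.21). Its annotated span overlaps Raet1d and H60b, so that its counts are uncertain. Raet1d had at most 5 UMIs in any mouse and was not tested. The study reported higher RAE1, MULT1 (Ulbp1), ICAM1 and CD155 (Pvr) protein on non-immune pancreatic cells of i4F mice. By RT-qPCR of pancreatic tissue it also reported higher Icam1 and Cd155 mRNA. Those measures cover cells other than acinar cells, so the acinar RNA values here are not a like comparison. Icam1 RNA had a mean of 8.81 CPM (SD 8.16) in WT, 10.5 CPM (SD 2.35) in i4F and 16.7 CPM (SD 6.29) after caerulein. Ulbp1 had 4 UMIs over the i4F mice and 0 in WT. Of 12 genes of MHC class I and peptide loading, 1 (Tapbp) rose and 2 (H2-Q4 and Tap2) fell without i4F 3, with medians of 0.11 and -0.14, shares near or under the 17.3% and 15.4% of all genes. Of 26 interferon-stimulated genes tested over all mice none passed, and of 25 without i4F 3, 2 (Irf7 and Isg15) rose and 3 fell, with medians of 0.41 and 0.44, shares again under those of all genes. In the cells with under 5 squamous UMIs 6 of 20 interferon-stimulated genes rose and 1 fell without i4F 3 (10.3% of all genes rose and 10.6% fell there), with a median of 1.18, and none of 26 passed over all mice. In all acinar cells every i4F mouse lay above every WT mouse for 10 of 26 (25.3% of all genes). Of the MHC class I genes 2 of 11 rose and none fell in the cells with under 5 squamous UMIs without i4F 3 (10.3% and 10.6% of all genes did).

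The lists of general cell programmes were read in the same way. Of 18 heat-shock chaperone genes 6 rose and none fell without i4F 3 (17.3% and 15.4% of all genes did), with medians of 0.57 and 0.62. Hsp90ab1 was at 1697 and 1809.8 CPM in WT, 4601, 4176 and 3079.7 CPM in i4F and 5850.0 and 5504 CPM after caerulein (1.32 ± 0.25 SE, adjusted p = 0.00359 without i4F 3, 1.17 ± 0.40 SE, adjusted p = 0.140 with all mice), and Hsp90aa1 at 287 and 195 CPM in WT, 1166, 990.1 and 446 CPM in i4F and 374 and 445 CPM after caerulein (2.15 ± 0.27 SE, adjusted p = 3.7e-04 without i4F 3, 1.85 ± 0.48 SE, adjusted p = 0.108 with all mice). Of 25 immediate early genes 10 fell and 5 rose without i4F 3, against 15.4% and 17.3% of all genes (medians -0.17 and -0.62). Fos was at 1565 and 1767 CPM in WT, 294, 233 and 951 CPM in i4F and 521 and 522 CPM after caerulein (-2.67 ± 0.25 SE, adjusted p = 7.5e-05 without i4F 3, -1.76 ± 0.59 SE, adjusted p = 0.136 with all mice), and Fosl1, a relative of Fos, at 0 and 1.46 CPM in WT, 31.9, 66.2 and 11 CPM in i4F and 12.9 and 7.06 CPM after caerulein. Such genes also respond to tissue digestion, whose part was not tested. Of 35 ribosomal protein genes 11 fell and none rose without i4F 3 (medians -0.22 and -0.58), and of 38 nuclear genes of oxidative phosphorylation 13 fell and none rose (medians -0.36 and -0.45), where 15.4% of all genes fell. For these 4 lists no gene passed over all mice. In the cells with under 5 squamous UMIs, 3 of 18 heat-shock genes rose and none fell without i4F 3 (median 0.24). Of 25 immediate early genes 7 fell and 3 rose there (median -0.41). Of 35 ribosomal protein genes 6 fell and none rose (median -0.42). Of 38 oxidative phosphorylation genes 10 fell and none rose (median -0.51). In that fit 10.3% of all genes rose and 10.6% fell. Against WT no list's median changed sign under DESeq2's size factors, without TMM or with library sizes that leave out secretory, Reg and mitochondrial genes, though the last 2 moved the median of all genes by 0.18 and 0.21.

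**Figure D4:**
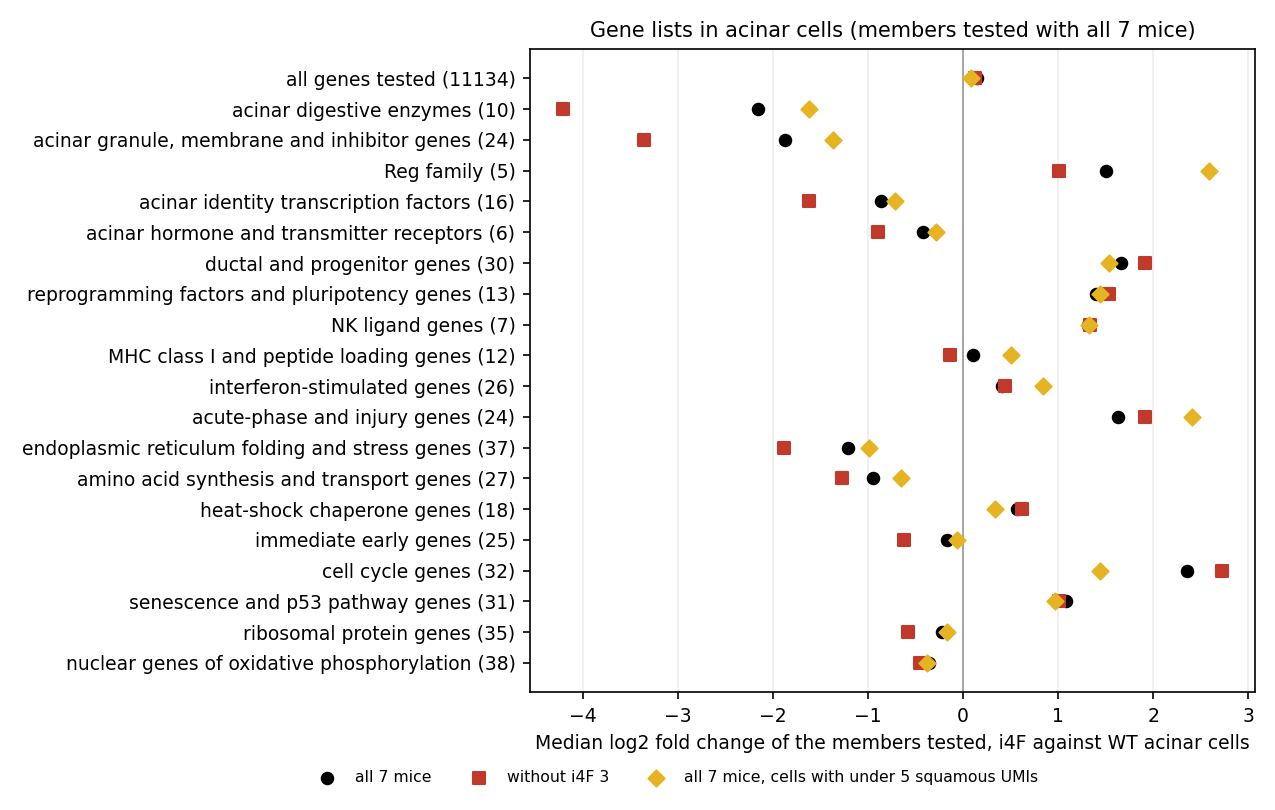
Median log2 fold change, i4F against WT acinar cells, of the tested members of each gene list (number tested over all mice in brackets), for all 7 mice (black circles), without i4F 3 (red squares) and for all 7 mice with the cells of under 5 squamous UMIs only (yellow diamonds). Enzymes lie lowest, at -2.16, -4.21 and -1.62, and cell cycle genes are highest over all mice, at 2.36.

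Markers of some other cell types, though not of all, differed between the same groups. UMIs of 62 markers of endocrine, immune, stellate and endothelial cells were found in 53.7% and 63.9% of WT acinar cells, in 84.5%, 77.1% and 52.8% of i4F and in 78.7% and 45.9% of caerulein acinar cells. A cell with more UMIs is more likely to hold one of them. The median UMIs per cell were 431 and 502 in WT, 1933, 2020 and 606 in i4F and 2213.5 and 1322.5 after caerulein. The 11 macrophage markers summed to 41.1 and 146 CPM in WT and to 1012, 566 and 436 CPM in i4F. They were above both WT mice in every i4F mouse for 10 of 11 (25.3% of all genes were), 7 rose without i4F 3 (17.3% of all genes did), and in WT 1 and WT 2 Adgre1 was at 0. The 8 endothelial markers summed to 138 and 160.4 CPM in WT and to 18.5, 14.6 and 57.0 CPM in i4F, and all 8 fell without i4F 3 (15.4% of all genes did). The 7 endocrine markers listed summed to 692 and 1110 CPM in WT and to 10.7, 20 and 218 CPM in i4F, and all 6 tested fell without i4F 3, against the same 15.4%. The 10 stellate or fibroblast markers summed to 1468 and 1333 CPM in WT and to 1772, 1156 and 745 CPM in i4F. The 8 B cell markers summed to 25.9 and 49.6 CPM in WT and to 327, 19.8 and 598 CPM in i4F, and the 10 T or NK cell markers to 3.04 and 17.5 CPM in WT and to 11, 9.20 and 109 CPM in i4F. Erythroid markers were at 0 in WT and at most at 11.3 CPM in i4F. The 8 neutrophil markers summed to 3.04 and 1.46 CPM in WT and to 61.4, 126 and 23.5 CPM in i4F. Among the acinar cells without a UMI of the 62 markers, 21 genes rose and 5 fell over all mice, of 3065 tested. The part of RNA of these cells in the other results was not tested.

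The caerulein mice give values after acinar injury by another agent, in libraries whose names begin with other letters than those of the i4F mice. They also have no doxycycline or sucrose named, and by the study's methods the time from first treatment to death differed. Genotype, doxycycline, caerulein, time and letters cannot be told apart in this comparison. Against them 8 of 11134 genes were higher in i4F acinar cells (0.0719%) and 6 lower (0.0539%) over all mice, and 1445 (13.0%) and 1049 (9.44%) of 11107 without i4F 3. In the cells with under 5 squamous UMIs the counts were 52 (0.531%) and 15 (0.153%) of 9794, and 329 (3.67%) and 86 (0.96%) of 8959 without i4F 3. This comparison shares the i4F mice with the one above. The 8 higher genes were Nccrp1, rtTA, Aldh3a1, Arc, Fetub, Hs3st3b1, Liph and Tmc6, and the 6 lower ones 1700007K13Rik, Clca3a2, Reep6, Serpinb9, Stab1 and Ubd (named by the counts, after their values were seen). rtTA is part of the i4F genotype and was not found in the caerulein mice, so its call was fixed in advance. Aldh3a1 had a mean of 0.21 CPM after caerulein. It entered the test through the i4F mice and Ubd through the caerulein mice, so the direction of each was fixed. Fetub, a liver protease inhibitor, was at 73 and 118 CPM in WT, 243, 446 and 207 CPM in i4F and 15.6 and 17.2 CPM after caerulein, and Ubd, a ubiquitin-like protein induced by inflammatory cytokines, at 0 and 0 CPM in WT, 0.804, 0.20 and 0 CPM in i4F and 17.1 and 29.2 CPM after caerulein. Serpinb9, which inhibits granzyme B, was at 7.6 and 4.38 CPM in WT, 16.9, 5.4 and 5.5 CPM in i4F and 152 and 149 CPM after caerulein, so that the caerulein mice stood above both other groups.

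The secretory genes were compared with the caerulein mice in the same way. Of the 10 enzymes none passed over all mice, with a median log2 fold change of 2.49 against caerulein, and without i4F 3, 2 were higher and 1 lower (13.0% and 9.44% of all genes were), with a median of 0.26. In the cells with under 5 squamous UMIs, 4 of the 10 were higher in i4F 1 and 2 and none lower (3.67% and 0.96% of all genes were), with a median of 1.88. Of the 24 granule genes 6 were higher and 4 lower without i4F 3 (13.0% and 9.44% of all genes were), with a median of 0.63, and 12 were higher in the cells of i4F 1 and 2 with under 5 squamous UMIs and 1 was lower (3.67% and 0.96% of all genes), with a median of 1.34. Among them Serpini2 had a log2 fold change of 3.03 ± 0.36 SE, adjusted p = 4.9e-04 without i4F 3, and 6.36 ± 1.10 SE, adjusted p = 0.0482 over all mice in the cells with under 5 squamous UMIs. In those cells Gp2 was also higher over all mice (3.78 ± 0.63 SE, adjusted p = 0.0444). Rbpjl was lower in i4F 1 and 2 than after caerulein (-2.58 ± 0.24 SE, adjusted p = 1.2e-04), and remained so in the cells with under 5 squamous UMIs (-0.98 ± 0.22 SE, adjusted p = 0.0388). Of the 5 Reg genes 2 (Reg3a and Reg3d) were higher without i4F 3 (13.0% of all genes were), with a median of 2.87, and 1 of 5 in the cells with under 5 squamous UMIs (3.67%). Reg3a had 4.47 ± 1.36 SE, adjusted p = 0.0413, and Reg2, which did not pass, 2.87 ± 1.05 SE, adjusted p = 0.0767. Krt8 did not pass (-0.01 ± 0.44 SE, adjusted p = 0.994 over all mice), and Clu, a chaperone of injured acini and ducts, was at 7077 and 5833 CPM in WT, 11329, 4204 and 5278 CPM in i4F and 34833 and 33825 CPM after caerulein. The sign of the median against caerulein changed with the scaling for the transcription factor, receptor, ductal, pluripotency, injury, endoplasmic reticulum, heat-shock, immediate early and oxidative phosphorylation lists, so no direction against caerulein is given for them.

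The share of acinar cells differed widely between i4F mice. They were 6.05%, 9.82% and 28% of all cells in i4F 1, 2 and 3 against 19.7% and 14.5% in WT (mean 14.6% ± 11.7, SD, n = 3, against 17.1% ± 3.69, n = 2). The exact two-sided permutation test gave p = 0.8, and p = 0.2 is the smallest that 2 against 3 mice allow. Of non-immune cells they were 10.5%, 19.0% and 44.5% against 20.8% and 16.4% (p = 1.0, exact permutation test). i4F 3 was above both WT mice and i4F 1 below both for either denominator. In the caerulein mice the shares were 10.2% and 15.5% of all cells. The part of cell recovery in these shares was not tested.

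**Figure D5:**
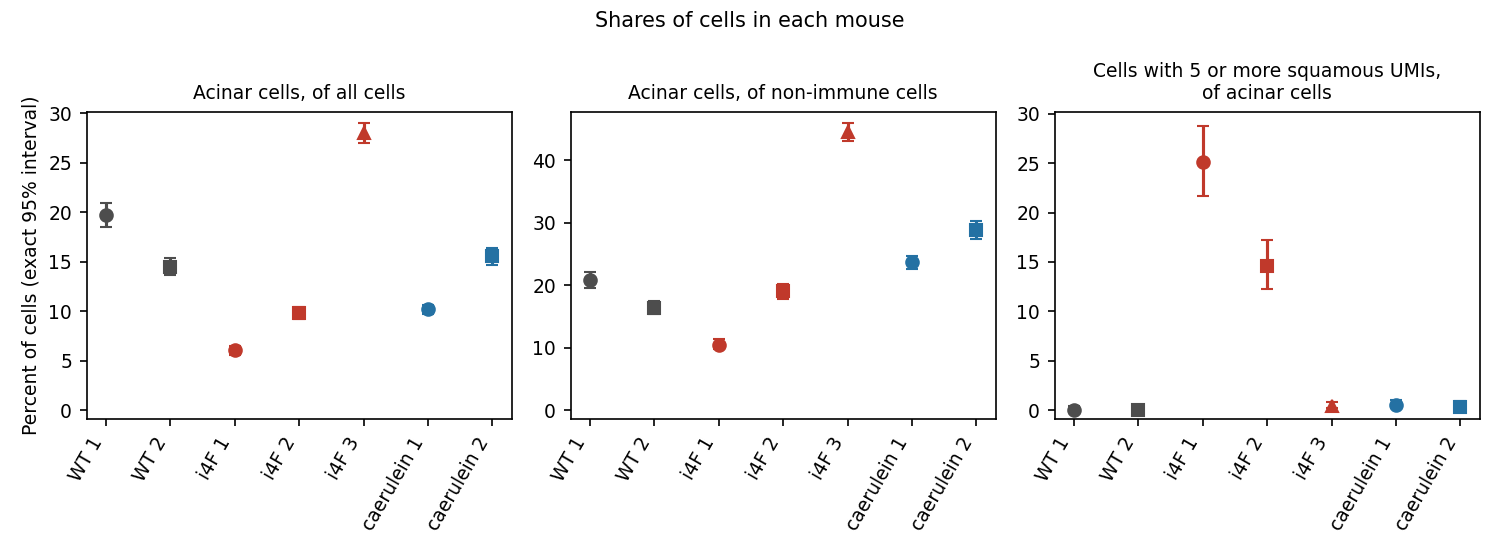
Percent of all cells (left) and of non-immune cells (middle) that were acinar, and percent of acinar cells with 5 or more squamous UMIs (right), 1 point per mouse with its exact 95% interval, which covers counting error only. i4F 3 has the highest acinar share (28% and 44.5%) and i4F 1 and 2 the highest squamous shares (25.1% and 14.6%).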

How the data were processed

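Members and gene lists were chosen with earlier results of these data known. The authors aligned the 10x 3′ v3 reads with Cell Ranger to GRCm38 (mm10) and used Seurat v3, with SoupX for free RNA and a limit of 150 genes and 5% mitochondrial reads per cell, and clustered each condition on 20 components at a resolution of 0.2. The deposited tables hold whole-number UMI counts per gene and cell, and whether they precede SoupX is not given in the sources used here. The counts of acinar cells were summed per mouse. Genes passing filterByExpr were tested in one fit of all 3 groups (7 mice) with edgeR 4.0.16 (TMM, quasi-likelihood test, Benjamini-Hochberg threshold 0.05) in R 4.3.3. The standard error (SE) is the log2 fold change divided by the square root of F. DESeq2 1.42.0, other scalings, other cell selections and leaving out each mouse were the alternatives. Shares were compared by exact permutation tests, with exact Clopper-Pearson intervals for single mice. No doublet caller was run. Named were the 4 label markers, the 10 genes of highest mean CPM, up to 10 called genes of largest change in each direction with a mean log2 CPM of at least 1, and up to 4 called members per list and direction. Some genes that met this rule are not reported here. Genes described beyond these were chosen after their values were seen. On simulated counts for the comparison with WT (10602 genes) the test recovered 92.0% of genes changed 16-fold and 32.0% of those changed 4-fold, with 5 false calls. These counts were drawn with the same spread between mice for every gene and the same change in every i4F mouse. In the data i4F 3 stood apart, so these percentages do not give the power of the tests reported here.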

Additional observations from a re-analysis of the deposited data

How the results depend on the processing

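The counts of genes moved with nearly every choice. Against WT (higher, then lower), DESeq2 gave 510 and 382, no filter on low counts 1369 and 635, no TMM 0 and 3, library sizes outside secretory, Reg and mitochondrial genes 2 and 5, the i4F and WT groups alone 0 and 0 (2098 at an unadjusted p under 0.05), and the letters of the library names (AL or AM) as a term 0 and 0 (1780). Cells with at least 500 genes gave 24 and 33, cells without other types' markers 21 and 5, leaving out the 5% of cells with most UMIs 0 and 0 (2029), acinar and ductal clusters together 5 and 0 (4705), the largest acinar cluster of each condition 0 and 0 (931), and, chosen after seeing the data, Acinar_2 alone 1423 and 1505, cells with under 5 squamous UMIs 12 and 8, the same without i4F 3 922 and 949, and 4 and 5 with genes that all tables list. Leaving out 1 mouse gave 0 to 1923 and 0 to 1706. Against caerulein, in the same order, the counts were 436 and 168, 1030 and 358, 0 and 0 (2383), 12 and 18, 0 and 0 (2109), 0 and 0 (764), 70 and 30, 45 and 7, 2 and 1, 1 and 0 (2433), 219 and 96, 1084 and 834, 52 and 15, 329 and 86, and 15 and 9, with 0 to 1445 and 0 to 1049 on leaving out 1 mouse. For the largest acinar cluster, which was Acinar_1 in i4F, i4F 1 had 11 cells, under the minimum of 20, and was left out. There i4F was i4F 2 (61 cells) and i4F 3 (2071 cells). The cause of the changes in these counts was not tested.

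With the replicate number as a block, 1732 genes were higher and 1562 lower than WT, and 1269 and 867 against caerulein. The numbers do not pair the mice (correlations of same-numbered mice from -0.20 to 0.01), and only i4F has a number 3, so that the block takes i4F 3 out of the comparison.

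The difference in acinar share of all cells, -2.49 points, was 2.90 with cells of at least 500 genes and ranged from -9.17 to 1.79 on leaving out 1 mouse (0.12 without WT 1, 1.79 without i4F 1). That of non-immune cells, 6.07 points, was -1.94 with ductal cells added and ranged from -3.85 (without i4F 3) to 13.1. With acinar and ductal clusters together the log2 fold change against WT was 0.92 for Gp2, 0.49 for Pnliprp2, 0.066 for Pla2g1b, 0.37 for Bhlha15, 0.52 for Cckar, 0.43 for Ero1lb, 1.07 for Phgdh, -0.70 for Nectin2, -0.67 for Pvr, 1.53 for Nupr1 and -0.28 for Hsp90aa1, each with the other sign than in acinar cells alone. In the joined sums acinar cells gave 767407 of 6697545 and 817448 of 5004703 UMIs in WT. In i4F they gave 3530216 of 4987755, 4470144 of 5281156 and 2887026 of 4964092. The joined sums thus compare mostly ductal RNA of WT with mostly acinar RNA of i4F and do not test the results in acinar cells. Nupr1 was at 0.39 in cells without other types' markers. Over the 44 genes whose fold changes were recomputed, 691 repeats kept direction and side of the threshold, 184 passed newly, 111 no longer passed and 12 changed sign. The WT mice had the fewest UMIs, which limits what could be detected for low genes.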

Other observations

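Without i4F 3 the 10 largest falls against WT included genes of nerve and islets. Gfra3, a receptor subunit of glia and sensory neurons, was at 16.7 and 61.2 CPM in WT, 0, 0 and 0 CPM in i4F and 0 and 0 CPM after caerulein. The WT acinar clusters of both mice held this message, and in the i4F and caerulein clusters it was at 0. Iapp, the amylin of beta cells, was at 598 and 614 CPM in WT, 2.68, 4.60 and 169.9 CPM in i4F and 4.49 and 7.06 CPM after caerulein, and Ttr, a carrier protein of islets and liver, at 309 and 586 CPM in WT, 2.41, 2.80 and 156 CPM in i4F and 7.71 and 9.52 CPM after caerulein. In i4F 3 both islet genes lay between WT and the other i4F mice. The source of this RNA was not tested.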
